A study of Mus musculus with 4 samples.

Results

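Extracellular control of Wnt signalling was examined gene by gene in dissociated glomeruli, the kidney's filters, of young and aged mice. The 7 genes were Sfrp1, Sfrp2, Sost, Dkk2, Dkk3, Wif1 and Lgr4, taken by symbol from the 52636 genes of the deposited matrices. They were selected on measured values, namely their UMIs per class in young against aged libraries. Their values are therefore given as a description with no test, and no p-value is attached to them. Lgr4 was grouped with the antagonists but is a receptor for R-spondins that enhances Wnt signalling, so the set is called here secreted Wnt antagonists and Lgr4.

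The study held 4 libraries, 2 from young and 2 from aged untreated mice (Mus musculus). Magnetic beads were perfused through the animals, and the glomeruli they lodged in were pulled from digested kidney with a magnet and dissociated with enzymes. Cells were captured in droplets with a 3' kit, so that each UMI, or unique molecular identifier, stands for 1 captured transcript molecule. The labels give the groups as young and aged, and age in months, sex, strain and the number of mice per library were not used here because the labels do not state them. Nothing in the labels says that the libraries came from separate animals, so the p-values below measure the spread between libraries, which may be technical.

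Wnt ligands bind Frizzled receptors together with the co-receptors Lrp5 and Lrp6, which stabilises beta-catenin and turns on target genes through TCF and LEF factors. Secreted antagonists act outside the cell at different points: the secreted frizzled-related proteins (Sfrp1, Sfrp2) and Wif1 bind Wnt ligands, whereas Dickkopf proteins such as Dkk2 and the osteocyte protein sclerostin, encoded by Sost, bind Lrp5 and Lrp6. Dkk3 is a divergent Dickkopf family member. R-spondins bound to Lgr4 to Lgr6 inhibit the ubiquitin ligases Znrf3 and Rnf43 and so keep Frizzled receptors at the surface. In the glomerulus, excess beta-catenin activity in podocytes is known to harm the filter.

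The matrices held 33323 barcodes with 18457791 to 42046542 UMIs per library, and filters left 28000 cells. Of 28 clusters, 22 were named from markers, and the 22157 cells in them that carried no marker programme of an unrelated class were used, 4682 and 2501 from young libraries against 8726 and 6248 from aged. Young replicate 2 stood apart: 64.1% of its kept cells stayed unnamed, against 5.02% to 8.14% in the other libraries, and 50.3% lay in clusters that mixed markers of several classes at a median of 1000.5 UMIs per cell. Libraries shared barcodes in 9 to 31 cases per pair (116 barcodes in all). Levels below are CPM, the UMIs of a gene per 1000000 UMIs of the class in a library, unless named otherwise, and values after ± are standard deviations (SD) over 2 libraries. Log2 fold changes, aged over young, come from edgeR with TMM scaling, each with its standard error (SE). In bulk sums of a class, fewer expressing cells and less RNA per cell cannot be told apart. The labels call the material whole tissue, but no cluster was named proximal tubule or fibroblast.

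Promoter sequences are shown for the 3 antagonists whose levels differed most between young and aged libraries in any tested class. They are the 250 bases before the RefSeq start site, 5′ to 3′ on the gene's strand, from the GRCm38.p6 table, which held 5 of the 7 genes (not Sfrp1 or Dkk3). The windows are chr3:83766071-83766320 on the plus strand for Sfrp2, chr11:101967016-101967265 on the minus strand for Sost and chr3:132085042-132085291 on the plus strand for Dkk2. Capitals mark the TATA box letters TATAAA, searched on both strands.
Sfrp2: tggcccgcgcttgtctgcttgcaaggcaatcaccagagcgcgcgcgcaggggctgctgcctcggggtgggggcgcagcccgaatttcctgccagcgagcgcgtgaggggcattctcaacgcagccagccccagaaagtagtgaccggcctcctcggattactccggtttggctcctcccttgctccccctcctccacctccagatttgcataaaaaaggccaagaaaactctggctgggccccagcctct
Sost: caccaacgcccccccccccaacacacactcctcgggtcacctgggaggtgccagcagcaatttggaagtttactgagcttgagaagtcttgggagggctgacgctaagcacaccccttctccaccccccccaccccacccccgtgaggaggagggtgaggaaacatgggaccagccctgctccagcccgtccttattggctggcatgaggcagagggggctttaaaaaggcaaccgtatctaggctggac
Dkk2: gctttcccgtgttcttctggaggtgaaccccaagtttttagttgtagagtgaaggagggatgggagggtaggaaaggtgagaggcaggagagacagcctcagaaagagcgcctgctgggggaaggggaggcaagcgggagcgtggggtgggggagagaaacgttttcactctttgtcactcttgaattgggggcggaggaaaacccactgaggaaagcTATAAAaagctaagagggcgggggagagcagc
TATAAA was found in the Dkk2 window, at position -32 from the start site on the gene's strand, and in the Wif1 window at -232 on the opposite strand, and 12.4% of 32851 promoter windows of this length hold it. The core TCF and LEF motif CTTTGA, also searched on both strands, was in none of the 5 windows and in 13.8% of all windows. These are descriptions of letters and say nothing about binding.

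Each of the 7 genes had most of its UMIs in named cells in 1 or 2 cell classes. Wif1 was a podocyte gene with 99.0% of its 4387 UMIs in named cells there, Sfrp2 a mesangial gene with 97.8% of 19168, and Sost an endothelial gene with 94.0% of 4998. Dkk2 was divided between mesangial-like cells (52.9% of 38414 UMIs) and endothelial-like cells (45.7%) over the 4 libraries. In young libraries the endothelial share was the larger, at 56.5% and 51.4% against 42.2% and 45.1%, and in aged the mesangial one, at 51.3% and 59.4% against 47.4% and 39.5%. These shares also depend on how many cells of each class a library held and on which cells were left out. Cells without a name held 38.1% and 52.5% of all young Dkk2 UMIs, against 9.49% and 15.1% of all aged. Left-out cells of the mesangial clusters were 35.1% and 33.0% of those clusters in young and 7.54% and 10.4% in aged. They held Dkk2 at 1168 and 1277 CPM in young. The order of the 2 shares with these cells included was not examined. Dkk3 lay in parietal epithelial-like cells (91.4% of 303), Lgr4 in podocyte-like cells (83.6% of 2555), and Sfrp1 outside the glomerulus proper, in distal nephron-like cells (94.8% of 670). Lymphocytes carried almost none of them, with at most 1 UMI of any of the 7 genes in the B cell-like or T and NK-like cells of a library.

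**Figure D1:**
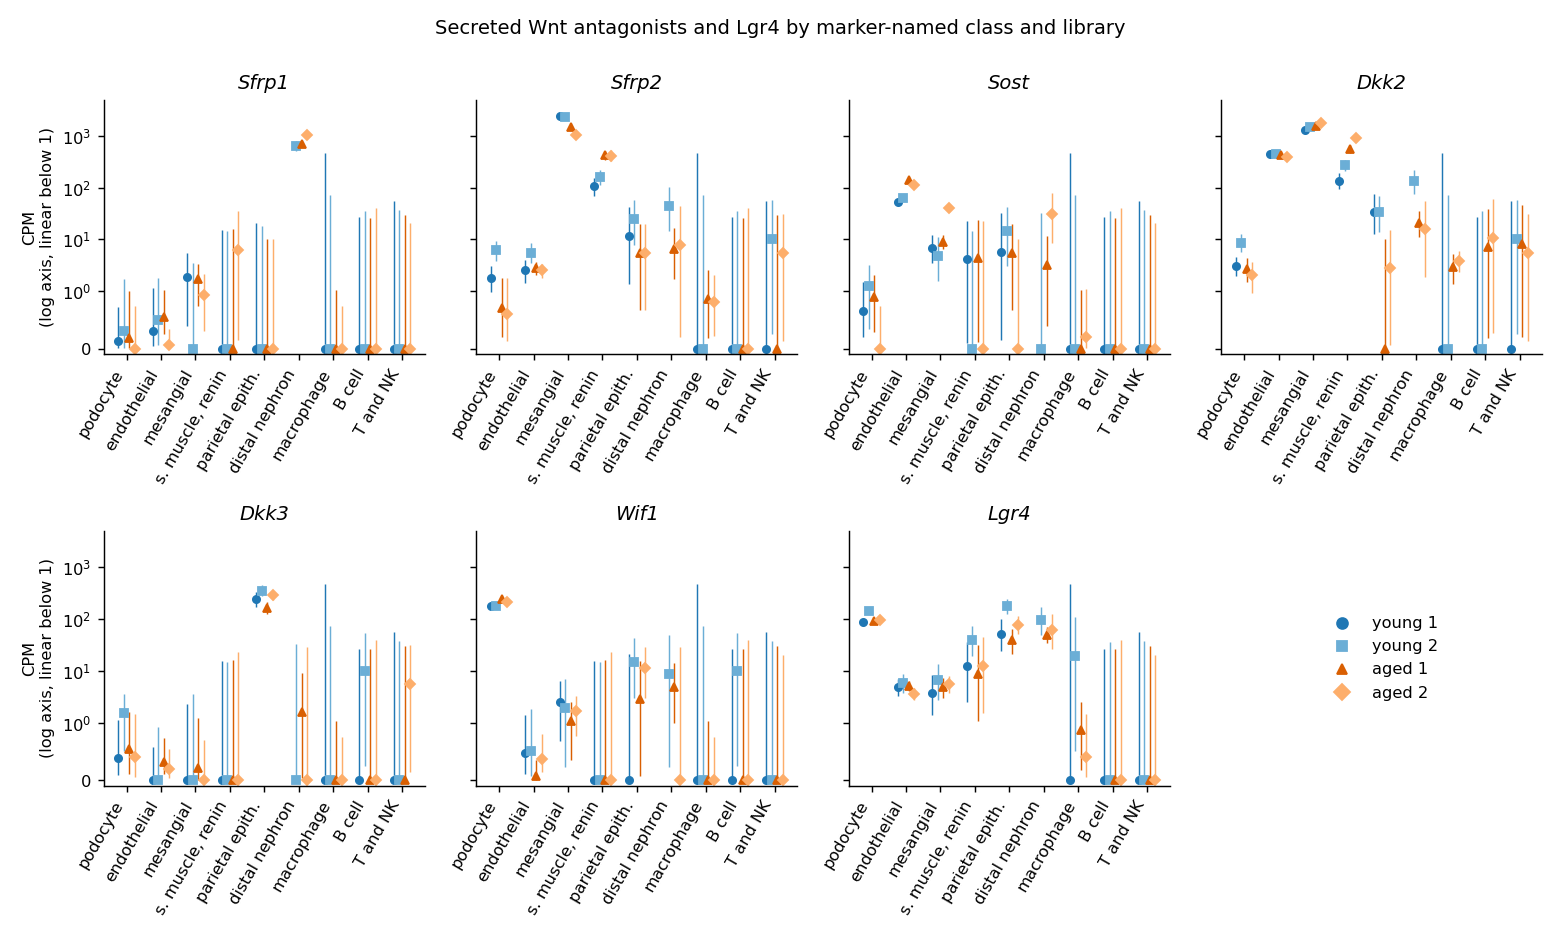
CPM (log axis, linear below 1) of each gene in 9 marker-named classes, 1 point per library, with exact 95% Poisson intervals that cover counting error only. Sfrp2 peaks in mesangial-like, Sost in endothelial-like, Dkk3 in parietal epithelial-like and Wif1 in podocyte-like cells, while Dkk2 is high in both endothelial-like and mesangial-like cells; young 1 had no distal nephron-like cells.

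Sost, which is best known from bone as the sclerostin gene, was an endothelial gene of these glomeruli and was higher in both aged libraries. In endothelial-like cells it reached 53.7 and 64.1 CPM in young libraries against 139 and 114 in aged, from 341, 254, 2244 and 1859 UMIs. The groups did not overlap, which was also so for 48.8% of all genes tested in this class. The log2 fold change was 1.24 (SE 0.15), a 2.36-fold higher level in aged, and it ranged from 1.09 to 1.38 over 13 alternative settings. Of the 7 genes, Sost, Dkk2, Lgr4 and Sfrp2 passed the count filter in endothelial-like cells.

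The share of endothelial-like cells with a Sost UMI stood at 8.71% and 10.6% for young against 22.6% and 25.0% for aged. Thinned to 1000 UMIs per cell, it was 4.07% and 4.74% against 11.02% and 8.99%, with 28, 147, 124 and 19 shallower cells left out. Podocyte-like cells, which serve as the background here, held a Sost UMI in 0% to 0.673% of cells at median depths of 4198 to 7677.5 UMIs, against 2315.5 to 3228 in endothelial-like cells. The endothelial share was above that background in every library.

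Sost varied widely within the endothelium. Cluster 2, which Sost itself led together with Ier5l and the transcription factor gene Gata5, held 116 and 139 CPM in young, 291 and 181 in aged. Cluster 6, led by Esm1 and Igfbp3, held 4.49 and 40.5 in young, 18.3 and 21.9 in aged, and there the groups overlapped. Cluster 7, led by Tspan8, was also low, at 27.4 to 29.7 in young and 38.1 to 51.7 in aged. In 8 of the 9 endothelial clusters each aged value exceeded each young value. Among these was cluster 4, led by Ptpru and P2ry1, with 38.6 and 34.2 in young against 197 and 116 in aged. Clusters 22 and 25, also among the 8, held few Sost UMIs. Cluster 22 had 1 and 3 in young and 27 and 4 in aged, and cluster 25 had 0 and 2 against 8 and 18. The share of all genes that separate within a cluster was not examined, and in the class as a whole it was 48.8%.

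**Figure D2:**
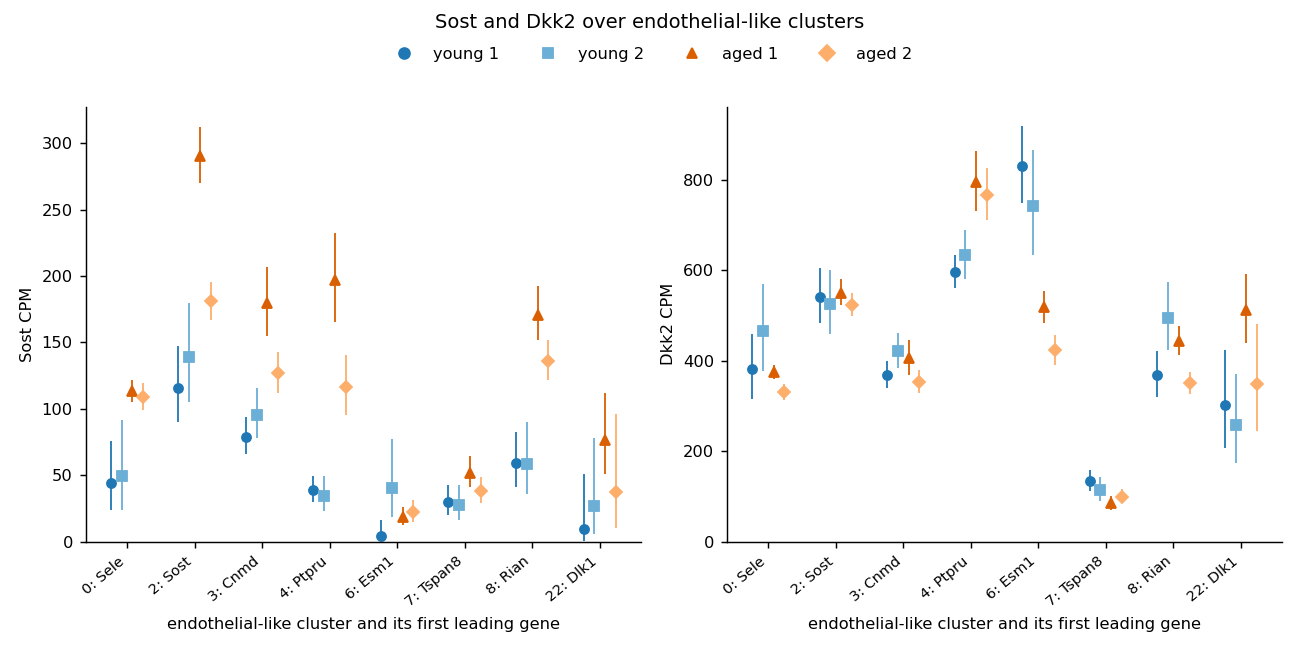
Sost (left) and Dkk2 (right) in CPM for the 8 endothelial-like clusters with at least 20 cells in every library, 1 point per library with exact 95% Poisson intervals (counting error only). Aged libraries sit above young ones for Sost in 7 of the 8 clusters shown and overlap them in cluster 6. Dkk2 in plain CPM is higher in aged in clusters 4 and 22 and lower in clusters 0, 6 and 7, but with the TMM scaling of the class cluster 0 overlaps and cluster 2 is higher in aged.

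The clusters were filled unevenly by age. Cluster 0, led by the endothelial adhesion gene Sele, held 113 and 63 young and 2204 and 943 aged cells. Within it Sost was 44.4 and 49.6 in young and 113 and 109 in aged, so the difference was as large inside this cluster. The 10 dissociation-induced genes summed to 18474 and 18624 CPM in young and 19790 and 22407 in aged endothelial-like cells, where 1 of the 10 rose and 0 fell (edgeR, adjusted p under 0.05), and their part in the result was not tested. When cells were clustered without the 7 genes and the Wnt pathway lists, the Sost log2 fold change was again 1.24. That value sums all endothelial-like cells as 1 class, so it cannot show how the filling of the clusters bears on it.

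In mesangial-like cells Sost was low, at 6.91 and 4.77 CPM in young libraries (11 and 5 UMIs) against 9.09 for aged replicate 1 (42 UMIs) and 39.8 for aged replicate 2 (212 UMIs). The high value came from 1 library. The log2 fold change of 2.12 (SE 0.67) dropped to 0.73 without aged replicate 2. The 8 endothelial markers summed in mesangial-like cells to 9.92% and 10.6% of their endothelial level in young and 11.8% and 15.6% in aged, mostly through Plvap and Ehd3. Their part in the Sost values was not tested.

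Sfrp2, which binds Wnt ligands through its frizzled-like domain, lay mainly in mesangial-like cells and was lower there in both aged libraries. Its level in mesangial-like cells was 2442 and 2334 CPM in young and 1498 and 1029 in aged. The groups did not overlap, like those of 54% of all genes tested in this class, and the aged libraries lay further apart (1263 ± 332) than the young ones (2388 ± 76.8). The log2 fold change was -0.81 (SE 0.20), or 1.75-fold lower in aged. The same 4 of the 7 genes passed the filter in mesangial-like cells.

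The young and aged mesangial-like cells came largely from different clusters, whose sizes are given here before cells with markers of another class were left out. Cluster 14, led by Gucy1a3, Steap4 and Rgs4, held 379 and 249 young and 38 and 18 aged cells. Cluster 11, led by the chemokine gene Cxcl13, Rab3c and Ccl2, held 23 and 12 young and 665 and 541 aged cells. Inside cluster 14 Sfrp2 was 2444 and 2334 in young and 2256 and 1705 in aged. Inside cluster 11 it was 2397 and 2335 in young and 1474 and 1017 in aged. In these plain CPM values aged lay below young in each cluster. With the TMM scaling of the class this was also so in cluster 11, but in cluster 14 the groups overlapped, at 2386 and 2249 in young and 2408 and 1739 in aged.

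Many young mesangial cells were not in these sums. Cells of the mesangial clusters that also carried markers of an unrelated class were left out, which removed 35.1% and 33.0% of them in young and 7.54% and 10.4% in aged. The left-out cells had median totals of 11765 to 18740.5 UMIs and held Sfrp2 at 1713 and 1559 in young and 1286 and 850 in aged. A mixed cluster led by Gm26771 and Sfrp2 added 1363 cells of young replicate 2 and 14 to 33 of the other libraries, with Sfrp2 at 1444 and 1297 in young and 810 and 900 in aged. With all mixed cells kept, the Sfrp2 log2 fold change moved to -0.41, and without aged replicate 1 to -1.13. The sign was the same in each of these settings. The 10 dissociation-induced genes, of which 3 fell and 0 rose in mesangial-like cells, summed to 29229 and 32634 CPM in young and 22492 and 28081 in aged, and their part in the Sfrp2 and Dkk2 values and in the mesangial list calls was not tested.

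**Figure D3:**
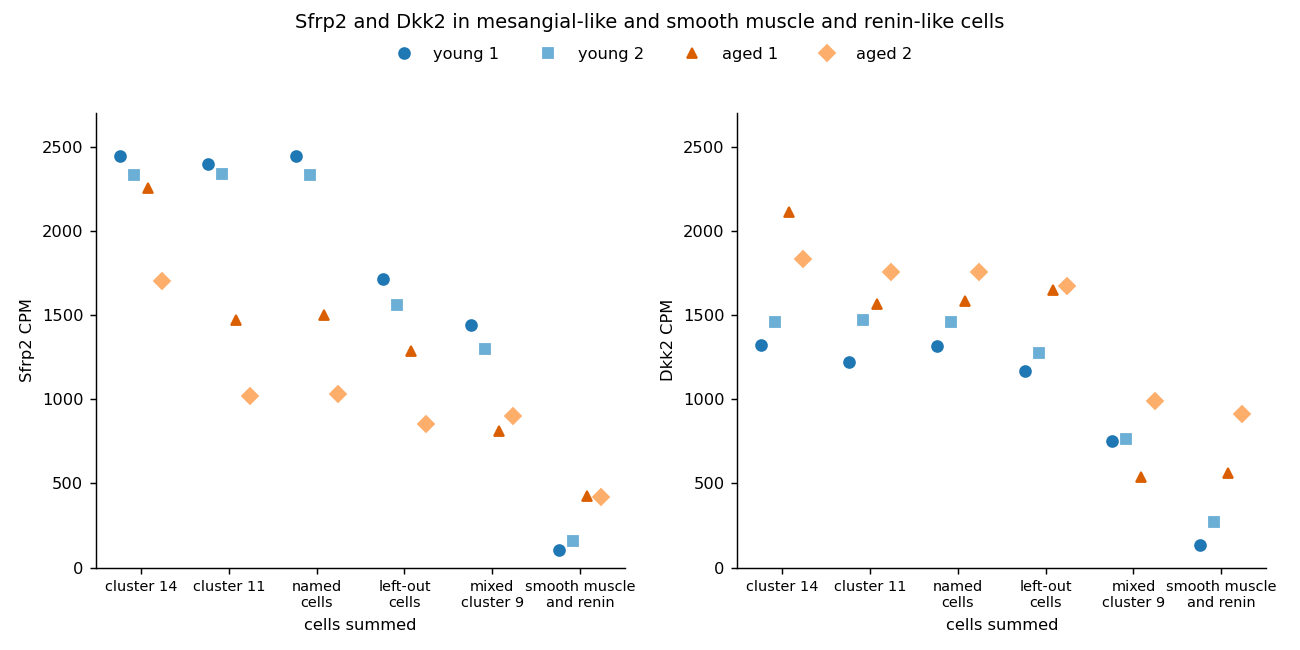
Sfrp2 (left) and Dkk2 (right) in CPM, 1 point per library, in mesangial clusters 14 and 11, in all named cells of both, in the cells of both left out for markers of another class, in mixed cluster 9, and in smooth muscle and renin-like cells. In plain CPM, Sfrp2 is lower in aged libraries in the first 5 sums (overlapping in cluster 14 under TMM scaling) and higher in smooth muscle and renin-like cells, while Dkk2 is higher in aged in all but mixed cluster 9, where the groups overlap.

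Sfrp2 lies on chromosome 3, from 83766321 to 83774316 on the plus strand (GRCm38, GENCODE vM21), where the gene model Gm26771 overlaps it on the opposite strand. Whether the counting used strand was not given in the sources used here, so reads of the 2 cannot be told apart with certainty. Gm26771 was 192 and 209 CPM in young and 53.0 and 56.6 in aged mesangial-like cells, and at most 1.77 in endothelial-like and podocyte-like cells. No other of the 7 genes overlaps an annotated gene.

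Dkk2, an Lrp5 and Lrp6 ligand, was higher in the aged libraries in the same mesangial-like cells. Its level was 1316 and 1460 in young and 1585 and 1758 in aged, from 2096, 1530, 7324 and 9375 UMIs. The groups did not overlap, which was also so for 54% of all genes tested in this class. The log2 fold change was 0.37 (SE 0.16) and ranged from 0.27 to 0.64 over 12 alternatives. Aged lay above young in cluster 14 (1320 and 1460 against 2115 and 1831) and in cluster 11 (1224 and 1469 against 1568 and 1757).

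Across the endothelium as a whole Dkk2 did not separate by age on the TMM scale. Its TMM-scaled CPM values were 440 and 407 in young and 439 and 401 in aged, so the groups overlapped, with a log2 fold change of -0.01 (SE 0.15). As plain CPM, with no TMM scaling, the same counts gave 442 and 440 in young and 419 and 383 in aged, and the log2 fold change was -0.14. The order of the groups for Dkk2 in this class thus depended on the scaling.

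Within the endothelium, the order of young and aged Dkk2 levels (plain CPM) differed between clusters. In cluster 6 (Esm1, Igfbp3), where the mean Sost level was lowest, Dkk2 was 831 and 743 in young and 519 and 423 in aged. In cluster 4 (Ptpru, P2ry1) it was 596 and 633 in young and 795 and 767 in aged. Of the 8 clusters with at least 20 cells in every library, cluster 7 (Tspan8) was the lowest in all 4, at 134 and 114 in young and 84.3 and 99.2 in aged. Under the TMM scaling of the class these 3 clusters kept their order. In cluster 7 it was kept only narrowly, at 133.1 and 105.3 in young and 88.2 and 103.7 in aged. In cluster 0 the plain order (382 and 466 in young, 375 and 330 in aged) turned to overlap (381 and 431, 393 and 345), and in cluster 2 overlap turned to higher values in aged (539 and 486 against 576 and 548). The differences between clusters were not tested, because the clusters were made from these cells.

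Smooth muscle and renin-like cells, the contractile and renin-secreting cells of the arterioles, had higher Sfrp2 and Dkk2 in both aged libraries. Sfrp2 was 107 and 158 in young and 425 and 418 in aged, from 26, 40, 98 and 67 UMIs. Dkk2 was 136 and 269 in young and 559 and 910 in aged, from 33, 68, 129 and 146 UMIs. Neither pair of groups overlapped, and 43.8% of all genes tested in this class did not. The log2 fold changes were 1.71 (SE 0.23) for Sfrp2 and 1.88 (SE 0.28) for Dkk2, the 2 of the 7 genes that passed the filter there.

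These sums came from 68, 85, 65 and 37 cells, and the mesangial markers in them did not all move the same way. The mesangial class counted as related to this one, so cells with mesangial markers were not left out of these sums. None of the 8 mesangial markers was at 0 in any library, and together they stood at 18.4% and 17.3% of their mesangial level in young and 28.9% and 32.4% in aged. Among them Serpine2 went from 358 and 336 to 1153 and 1209, and Itga8, Ptn, Gata3 and Fhl2 were also higher in both aged libraries. In contrast, Pdgfrb was 321 and 289 in young and 273 and 206 in aged, and Agtr1a 218 and 222 against 160 and 118. Des overlapped, at 634 and 443 in young and 421 and 455 in aged. The renin gene Ren1 reached 930 and 7464 in young but 24629 and 6594 in aged. The part of these markers in the Sfrp2 and Dkk2 values was not tested. Cells left out for markers of an unrelated class made up 62.7% of this cluster in young replicate 2 (143 of 228 cells, median 995 UMIs), against 1.52% to 2.86% in the other libraries, and held Sfrp2 at 360 and Dkk2 at 501 CPM. With mixed cells kept, the log2 fold changes were 0.75 for Sfrp2 and 1.21 for Dkk2.

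Wif1, whose protein binds Wnt ligands directly, was the podocyte antagonist and was higher in aged. It stood at 176.7 and 176.6 CPM in young and 243 and 213 in aged podocyte-like cells, from 1362, 573, 1359 and 1047 UMIs. The groups did not overlap, as was the case for 46.1% of all genes tested there. The log2 fold change was 0.42 (SE 0.13), 1.34-fold higher, with a range of 0.35 to 0.51 over 13 alternatives. Cells without a name held 41.5% of the Wif1 UMIs in kept cells of young replicate 2, against 2.42% to 4.65% in the other libraries. Wif1, Lgr4 and Dkk2 were the 3 of the 7 genes that passed the filter in podocyte-like cells.

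Both podocyte clusters showed the same order for Wif1. Cluster 1, led by Gas1 and Plagl1, held 169 and 165 in young and 240 and 204 in aged. Cluster 10, led by the nephrin gene Nphs1, held 193 and 218 in young and 255 and 252 in aged. The share of podocyte-like cells with a Wif1 UMI was 49.2% and 53.5% in young and 67.9% and 72.3% in aged. At 1000 UMIs per cell it was 16.0% and 15.6% against 20.6% and 18.1%. The background in endothelial-like cells was at most 0.146%. The 8 endothelial markers reached at most 0.936% of their endothelial level in podocyte-like cells. The 10 dissociation-induced genes, of which 3 rose and 1 fell in this class, summed to 35193 and 36225 CPM in young and 32910 and 38204 in aged, and their part in the Wif1 values and in the podocyte list calls was not tested.

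Lgr4, the R-spondin receptor, did not separate by age in podocyte-like cells. The young replicates stood at 88.9 and 143, which enclosed the aged values of 93.4 and 94.5. Cells without a name held 47.3% of the Lgr4 UMIs in kept cells of young replicate 2, against 4.43% to 13.7% in the other libraries. The log2 fold change was -0.22 (SE 0.16) and turned to 0.10 without young replicate 2. In parietal epithelial-like cells Lgr4 was 51.7 and 180 in young and 39.1 and 78.0 in aged, from 88 UMIs in all. Its log2 fold change there was -0.98 (SE 0.55) and turned to 0.23 without young replicate 2. The podocyte and parietal epithelial levels overlapped, and distal nephron-like cells lay in the same range with 97.1, 49.7 and 62.4 in the 3 libraries that had them. In endothelial-like and mesangial-like cells Lgr4 was 3.63 to 6.68, with log2 fold changes of -0.17 (SE 0.29) and 0.17 (SE 0.46), and the groups overlapped in both. Smooth muscle and renin-like cells held 8.67 to 39.6, from 17 UMIs.

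Dkk3 marked the parietal epithelial-like cells, which line Bowman's capsule. It stood at 241 and 355 CPM in young and 165 and 287 in aged, from 42, 73, 59 and 103 UMIs in 35, 82, 57 and 43 cells. The groups overlapped (those of 39.9% of all genes tested here did not), and the log2 fold change was -0.39 (SE 0.32). The 6 proximal tubule markers summed in these cells to 1246 and 136 CPM in young and 8214 and 103 in aged, and the 10 dissociation-induced genes to 13640 and 16416 in young and 5124 and 9575 in aged. Their part in the Dkk3 and Lgr4 values was not tested. In podocyte-like cells Dkk3 was at 0.389 to 1.54, and it was at 0 in the smooth muscle and renin-like sums of every library. Dkk3 and Lgr4 were the 2 of the 7 genes that passed the filter in this class.

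Sfrp1, the other frizzled-related antagonist, had 94.8% of its UMIs in named cells in distal nephron-like cells. Distal nephron-like cells numbered 0 and 62 for young against 60 and 11 for aged, and in the libraries that had them Sfrp1 was 644 in young replicate 2 and 692 and 1021 in aged. With no such cells in young replicate 1, age could not be compared. Of the 69 Sfrp1 UMIs in kept cells of that library, 63 lay in cells without a name. Cells whose leading segment gene was the distal convoluted tubule transporter Slc12a3 held 1009 CPM (48 of 64 cells with a UMI), and those led by Umod or Slc12a1, of the thick ascending limb, held 603 (28 of 44 cells). Cells led by the collecting duct gene Aqp2 or by Hsd11b2 held 32.4 (2 of 15 cells). In podocyte-like, endothelial-like and mesangial-like cells Sfrp1 was at 0 to 1.88.

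The low values of these genes outside their main classes were small against their peaks. Sfrp2 was 2.52 to 5.55 in endothelial-like cells and 0.610 to 6.16 in podocyte-like cells. The mesangial integrin gene Itga8 showed 1.42 to 5.55 and 1.22 to 4.93 in the same sums. Dkk2 in podocyte-like cells was 3.11 and 8.63 in young and 2.68 and 2.03 in aged, a total of 77 UMIs, with a log2 fold change of -1.07 (SE 0.45) that was -0.37 without young replicate 2 and -3.20 with mixed cells kept. The mesangial marker gene Ptn had the same order there, with 8.69 and 5.55 in young and 2.15 and 3.66 in aged, Itga8 overlapped, and the 8 mesangial markers summed to 45.7 and 45.6 CPM in young and 45.6 and 36.4 in aged. The 8 endothelial markers summed there to 38.8 and 120 CPM in young and 67.4 and 57.3 in aged. The part of both marker sets in the podocyte Dkk2 values was not tested. Sfrp2 in endothelial-like cells had a log2 fold change of -0.39 (SE 0.36) that became 0.15 without young replicate 2. Cells that got no name held a share of these genes that differed by library, with 52.8% and 65.8% of all young against 14.5% and 21.4% of all aged Sfrp2 UMIs, and 17.3% and 36.2% against 2.21% and 6.78% for Sost.

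The order of the classes by level was clear for most of the genes. Sfrp2 ran from mesangial-like (1826 over 4 libraries) to smooth muscle and renin-like cells (277) and then to levels of 11.7 or less in the other classes tested. Dkk2 was highest in mesangial-like cells (1530), and the order of the next 2 classes was not the same in young and aged: endothelial-like cells (442 and 440) lay above smooth muscle and renin-like cells (136 and 269) in young libraries and below them (419 and 383 against 559 and 910) in aged. That change of order was not tested. Sost ran from endothelial-like (92.8) to mesangial-like cells (15.1), whose library ranges did not meet. For Wif1 the podocyte level (202) was followed by that of parietal epithelial-like cells (7.13, from 8 UMIs).

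Genes with the most similar pattern over the 28 class and library sums (7 classes by 4 libraries) were named by Pearson correlation of log2(CPM + 10), as a description without a test. The sums share libraries and depth. For Sfrp2 they were Itga8 (r = 0.98), Angpt2 and Rgag4 (both 0.98). For Dkk2 they were Kank4 (0.98), Mecom (0.97) and Spry4 (0.96). Sost was matched by the interferon-induced gene Oas1a (0.95) and the unnamed gene models Gm43509 (0.95) and Gm37333 (0.94). Wif1 was matched by Gabra4, Nxph3 and Dync1i1 (0.98 each), and Dkk3 by Wwc1, Stxbp6 and Syngr1 (0.99 each). For Lgr4 they were C1qtnf7 (0.96), Col4a4 (0.96), which encodes a basement membrane collagen chain, and Zbtb7c (0.95). For Sfrp1 the distal nephron-like cells were not among the 7 classes, so the 3 matches, Apoc1 (0.94), Scnn1a (0.90) and Trem2 (0.89), rest on few UMIs.

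The wider pathway was read from 6 lists with 102 genes, 101 of them in the files, and a gene is called changed where edgeR's adjusted p was under 0.05. In podocyte-like cells 52 were tested, of which 2 rose and 3 fell (9.62%, beside 5.97% of all genes). In endothelial-like cells 61 were tested, of which 3 rose and 3 fell (9.84%, beside 5.7%). In mesangial-like cells 54 were tested, of which 4 rose and 2 fell (11.1%, beside 6.46%). In parietal epithelial-like and smooth muscle and renin-like cells 25 were tested in each and 0 were called by edgeR, beside 0% of 4869 genes (447 at an unadjusted p under 0.05 and 13 called with DESeq2) and 1.5% of 3860 genes. The lists' median log2 fold changes in the first 3 classes were -0.09, -0.02 and -0.02, against 0.00, -0.01 and -0.01 for all genes.

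In endothelial-like cells 1 of 5 tested genes of Wnt ligands and secretion and 1 of 3 of the R-spondin axis were called. Wnt2, a ligand gene, fell from a mean of 5.35 ± 0.44 to one of 1.42 ± 0.34 CPM (-1.80 on the log2 scale, SE 0.34, edgeR adjusted p = 0.00356). Rspo3, which encodes a ligand of Lgr4 made by endothelium, fell from 11.4 ± 0.71 to 2.99 ± 0.20 (-1.79, SE 0.24, edgeR adjusted p = 0.000202). The transcription factor and Wnt target gene Lef1 fell from 6.51 ± 1.86 to 1.64 ± 0.05 (-1.82, SE 0.32, edgeR adjusted p = 0.00211). The cell surface inhibitor gene Tpbg, the co-repressor gene Tle4 and the urokinase receptor gene Plaur rose, by log2 fold changes of 2.00, 0.55 and 0.73 (edgeR adjusted p = 0.0293, 0.0207 and 0.0313). All 6 calls were lost without either young library: without 1 of these, or with no filter on low counts, edgeR called 0 genes of the whole table, where 1885 (without young replicate 1), 1573 (without young replicate 2) and 2266 (no filter) had an unadjusted p under 0.05, and DESeq2 on all 4 libraries called 518. The calls of Tpbg and Tle4 were also lost without either aged library, that of Plaur without aged replicate 1, that of Tpbg with DESeq2 and that of Tle4 without TMM. Over the alternatives the adjusted p of the 6 genes reached 0.291 to 0.506.

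In podocyte-like cells the R-spondin gene Rspo1 rose from 4.80 and 8.94 to 12.3 and 19.3 CPM (1.38 on the log2 scale, SE 0.28, edgeR adjusted p = 0.0014). The Norrin co-receptor gene Tspan12 fell from 43.9 and 56.1 to 22.0 and 24.4 (-1.03, SE 0.16, edgeR adjusted p = 7.15e-05). Btrc, part of the ubiquitin ligase that marks beta-catenin for breakdown, fell (-0.58, SE 0.14, edgeR adjusted p = 0.00975), as did Pygo1 (-3.05, SE 0.71, edgeR adjusted p = 0.00655), a nuclear co-factor at 17, 11, 1 and 2 UMIs. The casein kinase gene Csnk1e rose (0.51, SE 0.15, edgeR adjusted p = 0.0433). With mixed cells kept, none of the 5 was called, and adjusted p-values over the alternatives reached 0.129 for Tspan12, 0.184 for Rspo1, 0.314 for Pygo1, 0.408 for Btrc and 0.574 for Csnk1e. With 1 library left out, Tspan12 was called each time, whereas Btrc, Pygo1 and Csnk1e were lost without either aged library, Rspo1 without aged replicate 2, Rspo1 and Csnk1e without young replicate 1, and Pygo1 without young replicate 2.

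Mesangial-like cells, where Sfrp2 was lower, showed higher Frzb, the gene of another frizzled-related antagonist. Frzb rose from 4 and 4 UMIs (2.51 and 3.82 CPM) to 189 and 67 (40.9 and 12.6), with a log2 fold change of 3.22 (SE 0.72, edgeR adjusted p = 0.0205). Of 7 feedback and target genes tested, 2 rose: the cyclin gene Ccnd1 from 182 ± 18.2 to 376 ± 61.8 (1.15, SE 0.16, edgeR adjusted p = 0.00185) and Wisp1 from 18.7 ± 0.62 to 37.5 ± 2.08 (1.11, SE 0.23, edgeR adjusted p = 0.0132). The Wnt receptor gene Ror2 rose (1.34, SE 0.34, edgeR adjusted p = 0.0386), whereas the co-receptor gene Lrp6 (-0.69, SE 0.16, edgeR adjusted p = 0.028) and the beta-catenin regulator Amer1 (-0.996, SE 0.22, edgeR adjusted p = 0.0187) fell. With mixed cells kept, the calls of Lrp6, Ror2, Amer1 and Ccnd1 were lost, and with DESeq2 those of Lrp6, Ror2, Amer1 and Wisp1. That of Ror2 was also lost without TMM and at a limit of 10% mitochondrial UMIs. These calls compare largely different clusters, as for Sfrp2, and over the alternatives the adjusted p of the 6 genes reached 0.118 to 0.293. All 6 calls were lost without young replicate 2, and all but that of Ccnd1 without young replicate 1.

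**Figure D4:**
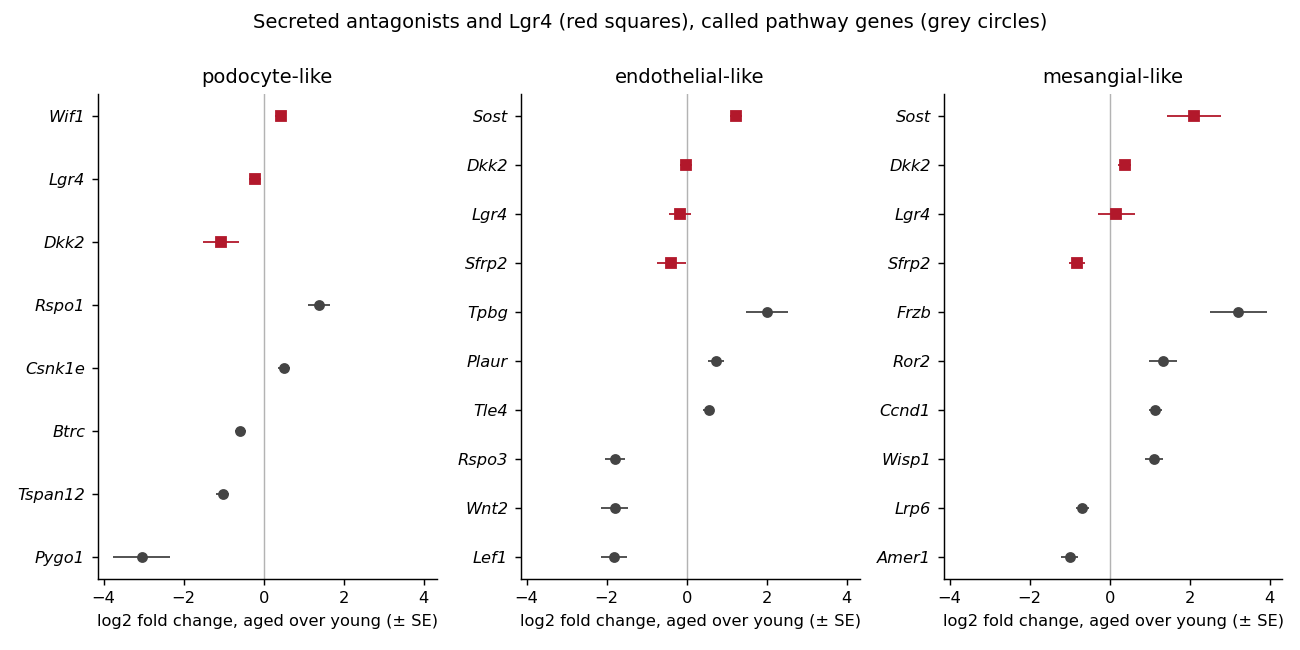
Log2 fold changes, aged over young, with standard errors from edgeR (bars), for those of the 7 genes that passed the count filter (red squares, description only) and the called Wnt pathway genes (grey circles) in 3 classes. Sost, Wif1 and mesangial Dkk2 lie to the right of 0 and mesangial Sfrp2 to the left; Rspo3, Wnt2 and Lef1 lie near -1.8 in endothelial-like cells.

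The 2 most abundant genes of each list were also read in the class where each was highest, and Plaur was the 1 called there. Igfbp4, a secreted inhibitor besides its role in binding growth factors, was 1172 ± 103 in young and 1516 ± 10.4 in aged mesangial-like cells (log2 fold change 0.48, SE 0.16, edgeR adjusted p = 0.104). The Wnt secretion gene Wls was 355 ± 24.7 and 394 ± 9.57 and the receptor genes Fzd2 and Ryk were 220 ± 7.79 and 174 ± 12.2, and 176 ± 10.7 and 170 ± 1.69, in young and aged podocyte-like cells. The ubiquitin ligase gene Znrf3 was 29.6 ± 6.58 and 24.4 ± 0.62 there, and the kinase gene Csnk1a1 was 981 ± 112 and 998 ± 59.7. In endothelial-like cells Ctnnb1, the beta-catenin gene, was 399 ± 51.0 and 351 ± 11.3 and Ccnd1 was 617 ± 16.3 and 558 ± 85.2. In parietal epithelial-like cells Rspo1 was 108 ± 9.05 and 22.3 ± 11.8 (log2 fold change -2.24, SE 0.43, edgeR adjusted p = 0.238), from 20, 21, 5 and 11 UMIs, and the ligand gene Wnt16 was 139 ± 2.20 and 87.9 ± 25.8, with Tpbg at 26.5 ± 3.12 and 20.9 ± 1.94.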

How the data were processed

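The deposited matrices hold raw UMI counts per gene and cell barcode, 1 matrix per library, with no normalization by the authors. Alignment was to GRCm38 per the labels' protocols. Those protocols state Cell Ranger 3.1.0, but 6.0.1 stands in the file headers and in the submitters' processing notes, which also list Partek. GENCODE vM21 held 99.6% of the gene IDs.

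Barcodes with at least 500 genes and at most 20% mitochondrial UMIs were kept. Scrublet's automatic threshold marked 0.449% of barcodes, so the highest scores were removed at 0.8% per 1000 barcodes (1876 barcodes, 6.28%). Clusters were made with scanpy 1.11.5 and leidenalg 0.10.2 (2000 variable genes, 30 components, 15 neighbours, resolution 1). A cluster was named if its median marker level reached 0.35 of the best cluster's with at least 3 markers, and clusters or cells with an unrelated class at 0.25 stayed unnamed; these thresholds were chosen with the data in view. The 7 genes and all gene lists were chosen with earlier results of these data known.

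UMIs were summed per class and library and tested with edgeR 4.0.16 (quasi-likelihood, TMM, its default count filter, age group as the only term, Benjamini-Hochberg adjustment over all genes of the class, threshold 0.05) in classes with at least 20 cells in every library. The code was tested on simulated data. Alternatives were DESeq2 1.42.0, no TMM, no count filter, a replicate block, each library left out, and other cell filters and clusterings. Without TMM the median log2 fold change of all genes was -0.13 in endothelial-like and -0.11 in mesangial-like cells, and calls split into 389 higher and 506 lower (with TMM 496 and 253) and into 353 and 403 (with TMM 449 and 236). The text names all 7 genes, the called list genes, the 2 most abundant genes of each list, and the 3 closest patterns. Intervals cover counting error only. Counts of 0 allow up to 3 UMIs.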

Additional observations from a re-analysis of the deposited data

Results flagged for a closer look

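Sfrp2 lay in opposite orders in 2 classes: both aged libraries were below both young ones in mesangial-like cells and above both in smooth muscle and renin-like cells, and the log2 fold changes differed by -2.52. Dkk2 had both aged libraries below both young ones in podocyte-like cells, at 77 UMIs in all and on the TMM scale, and above both in mesangial-like and in smooth muscle and renin-like cells, with differences in log2 fold change of -1.44 and -2.95. These differences were not tested. The groups also did not overlap for 46.1% of all genes tested in podocyte-like, 54% in mesangial-like and 43.8% in smooth muscle and renin-like cells. In podocyte-like cells the mesangial marker gene Ptn had the same order as Dkk2, at 8.69 and 5.55 CPM in young and 2.15 and 3.66 in aged. Itga8 overlapped there, and the 8 mesangial markers summed to 45.7 and 45.6 in young and 45.6 and 36.4 in aged. The 8 endothelial markers summed to 38.8 and 120 in young and 67.4 and 57.3 in aged. The part of these markers was not tested.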

How the results depend on the processing

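Over 191 alternative values of the genes' log2 fold changes, 165 moved by less than a spread set for the main value, and 26 moved by more. That spread was not the SE. Mesangial Dkk2 without TMM (0.27 against 0.37, SE 0.16) counted among the 26. Smooth muscle and renin Dkk2 without young replicate 2 (2.46 against 1.88, SE 0.28) counted among the 165. The values for Lgr4, for endothelial Dkk2 and for endothelial Sfrp2 crossed 0 in some settings. Counts over all genes were less stable. In podocyte-like cells 649 genes were called, 262 with DESeq2, 79 with mixed cells kept, and 291 to 960 with 1 library left out, and list calls were 5, 1, 0 and 1 to 9. In endothelial-like cells the count was 749, 0 with no filter on low counts, and 0 to 743 with 1 library left out, and list calls were 6, 0 and 0 to 4. In mesangial-like cells it was 685, 378 with DESeq2, 1254 with no filter, and 151 to 1799 with 1 library left out, and list calls were 6, 2, 10 and 0 to 14. In parietal epithelial-like cells it was 0 with edgeR (447 at an unadjusted p under 0.05), 13 with DESeq2, 1 with no filter, 12 at a limit of 10% mitochondrial UMIs, and 0 to 263 with 1 library left out, where list calls were 0 to 4. In smooth muscle and renin-like cells it was 58, 23 with DESeq2, 114 with no filter, and 91 to 106 with 1 library left out, where list calls were 0 to 1. The causes were not tested. Where an arm was left with 1 library, that library was assumed to vary like the other group's.

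The labels do not pair libraries of the same replicate number. Deviations of same-numbered libraries correlated at 0.03 (podocyte), 0.07 (endothelial), 0.03 (mesangial), 0.40 (parietal epithelial) and -0.07 (smooth muscle and renin). With the replicate block, calls were 810, 1160, 982, 232 and 148 in that order, with 6, 7, 7, 5 and 0 on the lists. Parietal epithelial-like cells thus stood apart. Their proximal tubule markers summed to 1246 (young) and 8214 CPM (aged) in replicates 1, against 136 and 103 in replicates 2. What same-numbered libraries share there was not tested. Clustering at resolution 0.5 left under 20 mesangial-like cells in young replicate 2 and gave no value there. Classes with few cells limit depth: Dkk3 and smooth muscle values rest on 26 to 146 UMIs per library. Scaling cluster levels by the TMM factors of their class was added after seeing the data; it turned the order of young and aged to overlap for Dkk2 in endothelial cluster 0 and for Sfrp2 in mesangial cluster 14.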
